A study of Mus musculus with 4 samples.

Results

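The 2 libraries of the P1 sort, 1 labelled lung and 1 labelled fat, were compared over their endothelial barcodes. A barcode (1 droplet, counted here as deposited) was a member when it held at least 1000 UMIs, at least 500 genes, at most 10% mitochondrial UMIs and at least 2 UMIs summed over the endothelial genes Pecam1, Cdh5, Cldn5 and Egfl7. This gave 647 members in the P1 library labelled lung and 1915 in the P1 library labelled fat, together 2562 of the 16973 barcodes of the series and of the 11934 that passed the quality limits. The values of the 4 selection genes were used by the rule and are not results.

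The study sorted vessel-forming stromal cells of C57BL/6 mice from fat and lung into 2 populations and profiled each by droplet sequencing of transcript 3' ends, with 1 library per tissue and population. The P1 gate was CD45-Ter119-Tie2+PDGFRa-CD31+ with high CD105 and low Sca1, and the P2 gate CD45-Ter119-Tie2+PDGFRa+CD31- with low CD105 and high Sca1. All 4 groups share the strain and the exclusion of leukocytes (CD45) and erythroid cells (Ter119). The age, sex and number of animals, the fat depot and any pooling are not given in the sources used here.

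Endothelial cells line all vessels and take on features of the organ they serve. In adipose tissue, capillary endothelium takes up fatty acids and passes them to adipocytes, with fatty acid binding proteins in the cytoplasm and lipoprotein lipase held on its surface. In the lung, capillaries of the alveolus consist of general capillary cells, which maintain the network, and large thin aerocytes over which gas is exchanged, and lung endothelium also clears prostaglandins and converts angiotensin.

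With 1 library per side there is no spread between replicates, so no test was run and no difference below has a replicate check. UMIs were summed over the members of a library and scaled to CPM, that is UMIs of a gene per 1000000 UMIs of that sum. Ranges in parentheses after a CPM, a fold or a share are exact 95% intervals and cover counting error only. Where 2 values are given together, the first belongs to the P1 library labelled lung and the second to the P1 library labelled fat. Log2 differences are labelled lung over labelled fat after 10 CPM was added to each, and "at least 4-fold" refers to that difference for genes that reached 50 CPM on either side. Folds given in words are plain ratios of CPM with nothing added.

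The members held 1112890 and 6324038 UMIs, with medians of 1569 and 2946 UMIs and 955 and 1629 genes per barcode. A gene with 0 UMIs can stand at up to 2.70 and 0.474 CPM, which is what 3 UMIs would give. Members made up 99.2% and 98.3% of the barcodes past the quality limits, and ribosomal protein genes held 16.1% and 4.39% of their UMIs. The libraries differed in how many barcodes exceeded 10% mitochondrial UMIs, 16 of 1305 and 1645 of 3783. Among members, mitochondrial genes held 5.74% and 5.36% of UMIs. A limit of 20% gave 647 and 2544 members, and 260 and 253 genes passed the 4-fold limit in the respective direction. At the threshold, 6 and 4 members held exactly 2 selection UMIs, while 4 and 10 barcodes past the quality limits held exactly 1 and stayed outside. The 2 P1 libraries had 20 barcode sequences in common, but no barcode was a member in both. A further 54 sequences of the P1 library labelled lung were also in fat P2. In all, 1 member of the P1 library labelled lung and 13 of the P1 library labelled fat had a barcode sequence found in another library. Without them 265 and 262 genes passed the 4-fold limit in the respective direction.

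Tissue markers went against the labels of both libraries. Fabp4 (fatty acid binding protein 4, ENSMUSG00000062515, chromosome 3, 10204088 to 10208576) marks adipocytes and the capillaries of fat, heart and muscle. It stood at 12369.6 CPM (12164 to 12578) and 96.9 CPM (89.4 to 105), and was thus 128-fold (118 to 139) higher in the P1 library labelled lung. Hpgd (ENSMUSG00000031613, chromosome 8, 56294585 to 56321043), which encodes the enzyme that inactivates prostaglandins and is abundant in lung, stood at 2.70 CPM (0.556 to 7.88) and 2572 CPM (2532 to 2612). Its 3 UMIs in the P1 library labelled lung gave a fold of 954 (326 to 4627). Foxf1 (ENSMUSG00000042812, chromosome 8, 121084386 to 121088144), a transcription factor of lung mesenchyme and vessels, stood at 3.59 CPM (0.979 to 9.20) and 737 CPM (716 to 758), which is 205-fold (80.0 to 753) higher in the P1 library labelled fat. Coordinates are those of GRCm38, and all 3 are protein-coding genes. The direction of these 3 markers was known when the comparison was chosen. It is therefore not new evidence, and neither is their part in the gene lists below.

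The same markers were then read in the P2 libraries, which took no part in the rule and carry tissue labels of their own. Applying the endothelial rule there gave 28 barcodes in lung P2 and 19 in fat P2, none of which had the barcode sequence of a P1 member. In them Fabp4 stood at 9132 CPM in fat P2 and 222 CPM in lung P2, Hpgd at 8.32 CPM in fat P2 and 2165 CPM in lung P2 and Foxf1 at 8.32 CPM in fat P2 and 394 CPM in lung P2. Fabp4 had a UMI in 16 of the 19 fat P2 and 2 of the 28 lung P2 barcodes, and Hpgd in 1 and 26. The barcode with most Fabp4 held 47.9% of its UMIs in fat P2 and 72.2% in lung P2. Median Fabp4 levels per barcode were 6094 CPM in fat P2 and 0 CPM in lung P2. Of the 253 genes at least 4-fold higher in the P1 library labelled lung, 210 were higher by any margin in the fat P2 endothelial barcodes and 33 in those of lung P2. Of the 260 genes at least 4-fold higher in the P1 library labelled fat, 13 and 247 were, while over all 4592 genes measured the split was 1807 and 2775. With the 4-fold limit applied in P2 as well, the split of the 253 genes was 102 and 8. That of the 260 genes was 0 and 146, and that of all genes measured 131 and 272. Without P2 barcodes found in another library, the splits of the 253 and 260 genes were 205 and 37, and 12 and 248. The fat P2 barcodes also carried fibroblast RNA, with Dcn, a fibroblast proteoglycan, at 7652 CPM, and only 1 of them was free of fibroblast collagen and Dcn UMIs. Lung and fat are therefore used below as labels, and every direction is given as labelled.

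**Figure D1:**
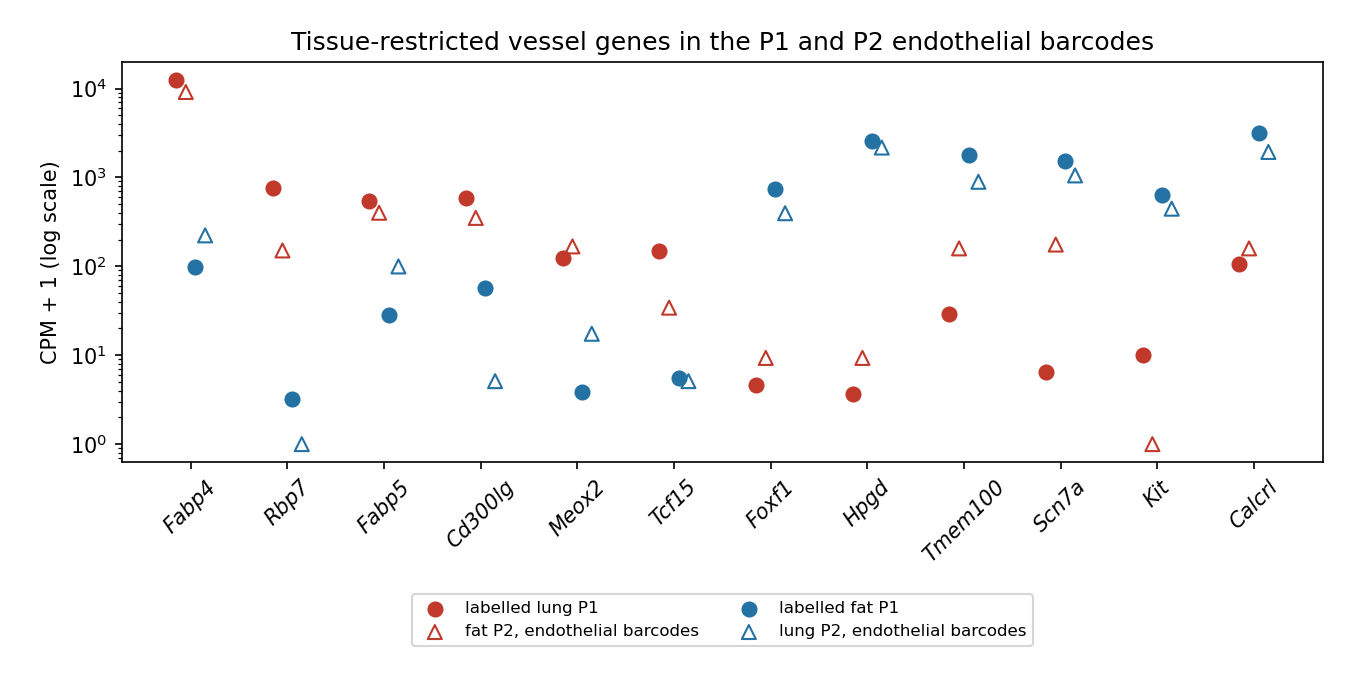
Level (CPM + 1, log axis) of tissue-restricted vessel genes in the endothelial barcodes of the 2 P1 libraries and of the 2 P2 libraries, 1 library per point. Fabp4 stands high in the P1 library labelled lung and in fat P2, and Hpgd and Foxf1 stand high in the P1 library labelled fat and in lung P2.

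Across all genes, 4592 reached that minimum. Of these, 253 (5.51%) were at least 4-fold higher in the P1 library labelled lung and 260 (5.66%) in the P1 library labelled fat, 513 (11.2%) in either direction. The median log2 difference was -0.31, and 2800 genes (61.0%) lay within 2-fold. The library labelled lung P1 was thus the higher one for 49.3% of the genes 4-fold apart. When both libraries were instead scaled to the sum of pan-endothelial genes, all log2 differences shifted upward, and that share became 85.8% (645 against 107 genes). The median was then 0.88, over the 4821 genes that reached 50 CPM under that scaling. None of the 513 genes changed direction under that scaling or any other alternative, but 18 of 40 list medians changed sign under it, all from below 0 to above. The gene lists below were compared with these shares, and a count near 5.51% or 5.66% of a list is no more than the whole gene set gave.

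**Figure D2:**
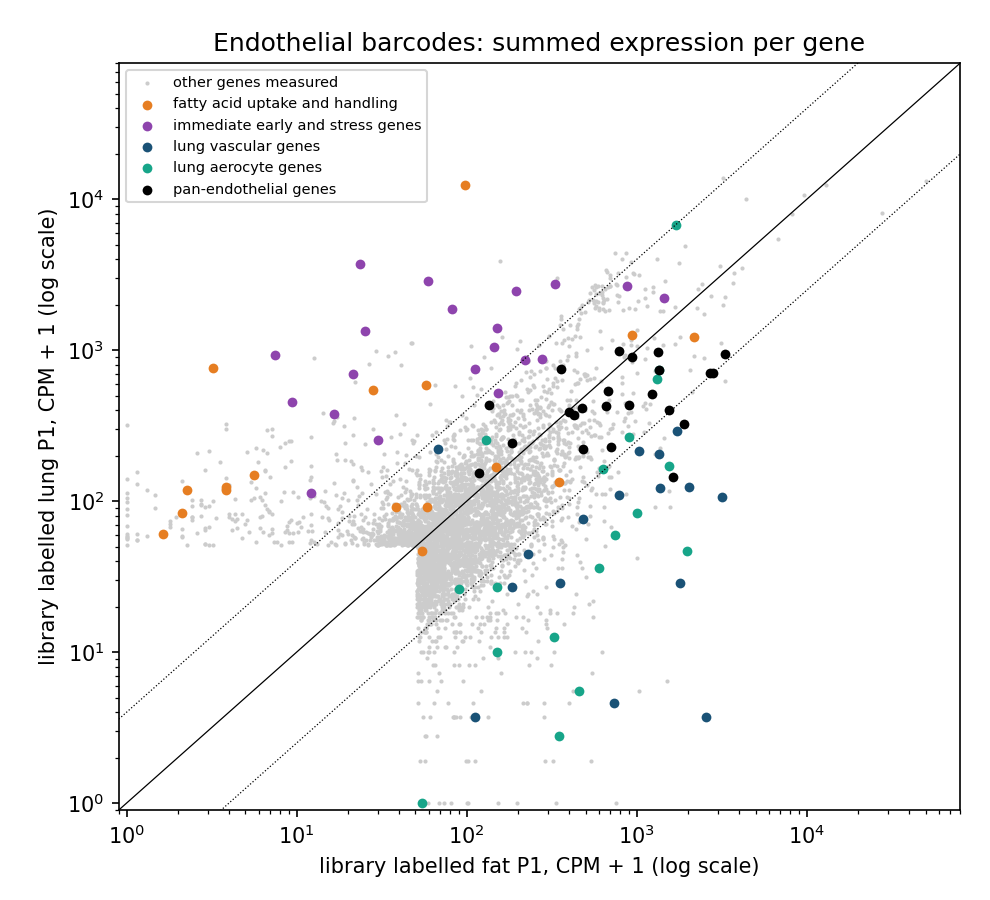
CPM of each gene measured in the P1 library labelled fat (horizontal) against the P1 library labelled lung (vertical), both as CPM + 1 on log axes, with the line of equal values and dotted lines at a 4-fold ratio. Fatty acid genes (orange) and immediate early genes (purple) lie mostly above the upper dotted line, lung vascular and aerocyte genes (blue and green) mostly below the lower one, and pan-endothelial genes (black) mostly between them.

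Genes of fatty acid uptake stood higher in the P1 library labelled lung. In that list 17 of 23 members were measured, 10 of them at least 4-fold higher in the P1 library labelled lung and 0 in the P1 library labelled fat (median log2 difference 3.06). Rbp7, a retinol binding protein of the fatty acid binding protein family, stood at 758 CPM (708 to 811) and 2.21 CPM (1.21 to 3.71), and Fabp5, a further fatty acid binding protein, at 545 CPM (503 to 591) and 27.2 CPM (23.3 to 31.6). Shares of barcodes, here and below, come from the same UMIs as the sums and are not separate evidence. In the P1 library labelled lung, barcodes varied by little more than counting error, so the shares follow largely from the summed level. After each barcode was thinned to 1000 UMIs, Rbp7 was seen in 51.8% (47.8 to 55.7) and 0.209% (0.0569 to 0.534) of barcodes and Fabp4 in 99.8% (99.1 to 99.996) and 0.940% (0.558 to 1.48). Unthinned, the shares were 68.2% and 0.209% for Rbp7 and 99.8% and 1.25% for Fabp4. Non-endothelial barcodes of lung P2 and fat P2, with median depths of 2122 and 5156 UMIs, held Fabp4 in 0.284% and 3.77% when thinned. The low share in the P1 library labelled fat lies within the range of these barcodes.

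The same list held regulators and transporters. The transcription factors Tcf15 and Meox2, which together drive fatty acid transporter genes in endothelium, stood at 148 and 4.59 CPM and at 124 and 2.85 CPM. Pparg, the nuclear receptor of fat storage, stood at 59.3 and 0.633 CPM. Aqp7, a channel for glycerol, stood at 118 and 1.27 CPM, and Slc27a3, a long-chain acyl-CoA synthetase, at 118 and 2.85 CPM. Cd300lg, a receptor of capillary and venular endothelium, stood at 589.5 and 56.6 CPM, and Angptl4, a secreted inhibitor of lipoprotein lipase, at 82.7 and 1.11 CPM. All of these were at least 4-fold higher in the P1 library labelled lung. The lipase system itself was not: Gpihbp1, which carries the lipase to the capillary lumen, stood at 1264 CPM (1199 to 1332) and 943 CPM (919 to 967), Lpl at 133 and 348 CPM, and the fatty acid receptor Cd36 at 1217 and 2181 CPM. Lpl and Cd36 were higher in the P1 library labelled fat by less than 4-fold. Pnpla2, the triglyceride lipase, had close values of 167 and 148 CPM.

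Lists of lung capillary and lung vascular genes stood higher in the P1 library labelled fat. Of the general capillary genes 15 of 15 members were measured, 0 of them at least 4-fold higher in the P1 library labelled lung and 7 in the P1 library labelled fat (median log2 difference -1.98). Kit, the stem cell factor receptor, stood at 8.99 CPM (4.31 to 16.5) and 626 CPM (607 to 646), and Sema3c, a secreted semaphorin, at 4.49 CPM (1.46 to 10.5) and 1034 CPM (1009.5 to 1059.8). Scn7a, a sodium channel gene, stood at 5.39 CPM (1.98 to 11.7) and 1513 CPM (1483 to 1543) and was 281-fold (129 to 765) higher in the P1 library labelled fat. Npr3, the clearance receptor of natriuretic peptides, stood at 14.4 and 293 CPM and Hilpda, a lipid droplet protein, at 30.6 and 501 CPM. Plvap, the diaphragm protein of fenestrae and caveolae, went the other way by less than 4-fold, at 2872 and 1472 CPM. Thinned, Kit was seen in 0.464% (0.0957 to 1.35) and 41.7% (39.5 to 43.9) of barcodes and Sema3c in 0.309% (0.0375 to 1.11) and 51.6% (49.3 to 53.9). Non-endothelial lung P2 and fat P2 barcodes held Kit in 0.284% and 0.444% and Sema3c in 2.27% and 40.9%. The unthinned shares were 1.55% and 65.9% for Kit and 0.773% and 74.7% for Sema3c.

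Of the aerocyte genes 18 of 18 members were measured, 0 of them at least 4-fold higher in the P1 library labelled lung and 11 in the P1 library labelled fat (median log2 difference -2.87). With Rprml, which had 0 UMIs in the P1 library labelled lung, placed at its bound, the median was -3.10. Car4, a carbonic anhydrase on the cell surface, stood at 82.7 CPM (66.6 to 101) and 997 CPM (972 to 1022) and was 12.1-fold (9.82 to 14.980) higher in the P1 library labelled fat. Emp2, a small membrane protein, stood at 45.8 CPM (34.1 to 60.3) and 1980.1 CPM (1946 to 2015). Prx (periaxin) stood at 1.80 and 349 CPM and Fibin at 4.49 and 455 CPM. The 2 UMIs of Prx in the P1 library labelled lung gave a fold of 194 (53.7 to 1605). The T-box factors Tbx2 and Tbx3 stood at 11.7 and 324 CPM and at 35.0 and 599 CPM. Ednrb, the endothelin B receptor often used to mark aerocytes, stood at 163 and 631 CPM and missed the 4-fold limit. Igfbp7, a secreted binding protein also in this list, was higher in the P1 library labelled lung, at 6772 and 1704 CPM.

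In the list of lung vascular genes 16 of 18 members were measured, 0 of them at least 4-fold higher in the P1 library labelled lung and 15 in the P1 library labelled fat (median log2 difference -2.99). Besides Hpgd and Foxf1, Tmem100, a membrane protein induced by BMP signals, stood at 27.9 CPM (18.9 to 39.5) and 1802 CPM (1769 to 1835). Slco2a1, the prostaglandin transporter, stood at 122 and 1378 CPM and Clic5, a chloride channel protein, at 109.6 and 782 CPM. Ace, the angiotensin-converting enzyme, stood at 215 and 1029 CPM, and Nostrin, a trafficking partner of the endothelial nitric oxide synthase, at 27.9 and 355 CPM. Thbd, which encodes thrombomodulin, stood at 205 and 1346 CPM. Clic5, Ace and Thbd were within 4-fold when scaled to the pan-endothelial sum. The measured exception was Grrp1, at 219 and 66.4 CPM. The list was drawn up with earlier results of these libraries known, so its direction is a description and not independent evidence.

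**Figure D3:**
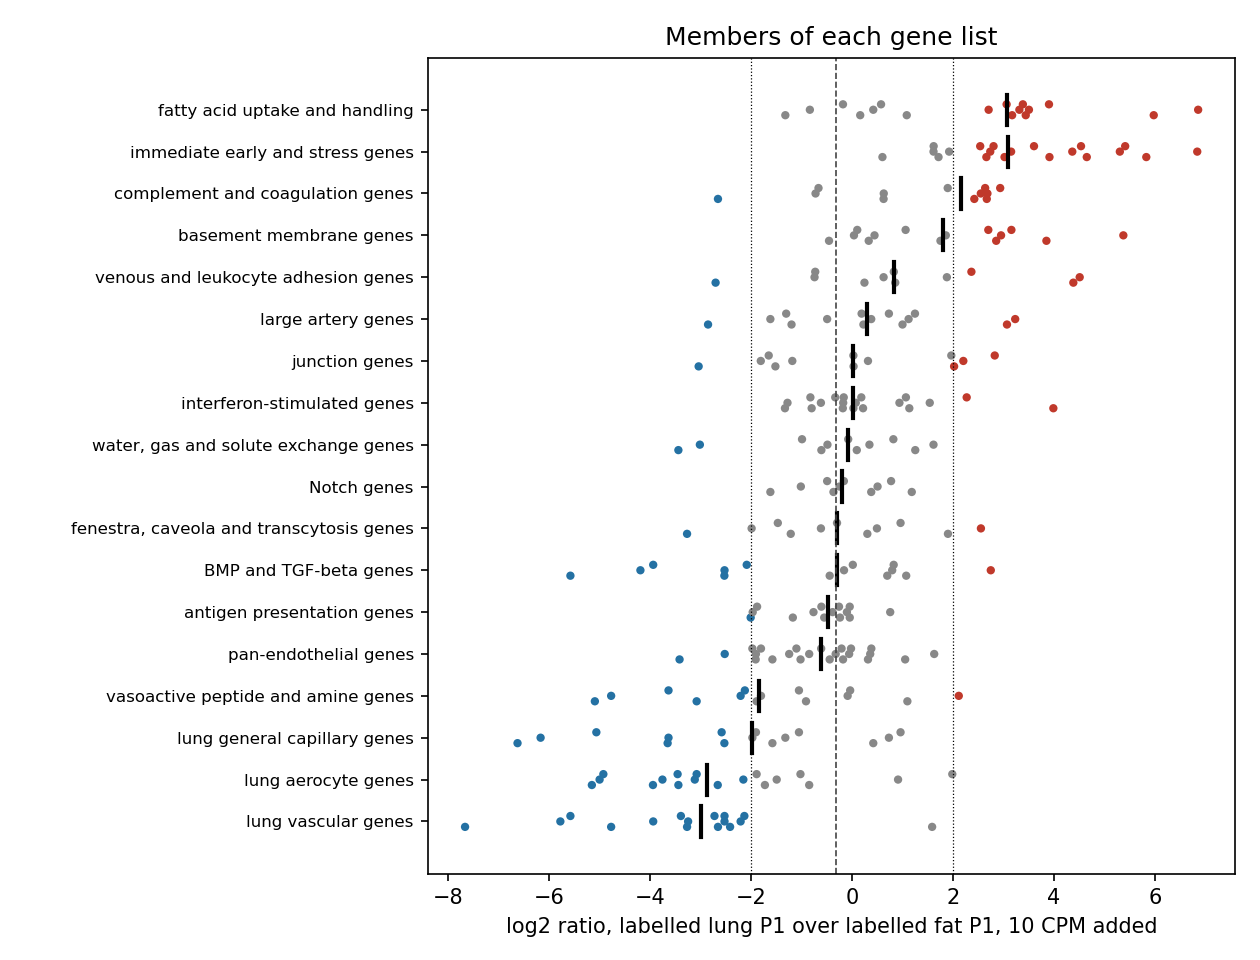
Log2 difference, labelled lung over labelled fat after adding 10 CPM, of each measured member of 18 gene lists, 1 point per gene, with black bars at list medians, dotted lines at 4-fold and a dashed line at the median of all genes. Members of the fatty acid and immediate early lists lie mostly to the side of the P1 library labelled lung, and those of the lung vascular and aerocyte lists to the side of the P1 library labelled fat.

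Receptors and ligands that set vascular growth were described next. Of the VEGF, angiopoietin and Tie genes 11 of 16 members were measured, 2 of them at least 4-fold higher in the P1 library labelled lung and 1 in the P1 library labelled fat (median log2 difference -0.43). Flt1 (VEGF receptor 1) stood at 902 CPM (847 to 959.7) and 940.1 CPM (916 to 964) and Tie1 at 391 CPM (355 to 429) and 397 CPM (382 to 413), which are close values. Kdr (VEGF receptor 2), at 742 and 1346 CPM, and the angiopoietin receptor Tek, at 229 and 704 CPM, were higher in the P1 library labelled fat by less than 4-fold. The ligand Vegfa, in contrast, stood at 17.1 CPM (10.3 to 26.7) and 424 CPM (408 to 440.3), 24.8-fold (15.9 to 41.3) higher in the P1 library labelled fat. The co-receptor Nrp2 was higher in the P1 library labelled lung, at 116 and 13.8 CPM. In the Notch list 0 and 0 of 10 measured members were at least 4-fold higher in the respective library (median -0.21), with the ligand Dll4 at 164 and 235 CPM and the receptor Notch4 at 104 and 138 CPM. In the Eph and ephrin list the counts were 0 and 2 of 6 measured members (median -0.81). They were Efnb1 (67.4 and 415 CPM) and the arterial ligand Efnb2 (111 and 861 CPM), both within 4-fold when scaled to the pan-endothelial sum. In the Wnt list the counts were 0 and 1 of 9 measured members (median -0.39), the called one being Nkd1, an antagonist induced by the pathway, at 3.59 and 283 CPM. The receptor Fzd4 stood at 148 and 382 CPM, while the transducer Ctnnb1 (beta-catenin) was close at 273 and 268 CPM.

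BMP signalling genes were unevenly spread. In that list 14 of 21 members were measured, 1 of them at least 4-fold higher in the P1 library labelled lung and 6 in the P1 library labelled fat (median log2 difference -0.30). The receptor pair for BMP9 stood higher in the P1 library labelled fat, with Acvrl1 (ALK1) at 292 and 1732 CPM and Bmpr2 at 123 CPM (103 to 146) and 2033 CPM (1998 to 2069). The inhibitory Smad6 stood at 20.7 and 551 CPM and the ligand Bmp6 at 53.9 and 359 CPM. Scaled to the pan-endothelial sum, Acvrl1 (log2 -1.48) and Bmp6 (-1.55) were within 4-fold. The co-receptor Eng (CD105, also in the sort gate) differed by less than 4-fold, at 976 and 1331 CPM. So did the target Id1, at 637 and 363 CPM, and the transducer Smad1 was close at 71.0 and 70.2 CPM. Ltbp4, a matrix protein that stores TGF-beta, was higher in the P1 library labelled lung, at 896 and 125 CPM.

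Several vasoactive receptors stood far apart. Of the vasoactive peptide and amine genes 14 of 19 members were measured, 1 of them at least 4-fold higher in the P1 library labelled lung and 6 in the P1 library labelled fat (median log2 difference -1.85). Calcrl, the receptor that pairs with RAMP proteins to bind adrenomedullin and CGRP, stood at 106 CPM (87.8 to 127) and 3164 CPM (3121 to 3208), 29.8-fold (24.9 to 36.1) higher in the P1 library labelled fat. Its partner Ramp2 stood at 939 and 3307 CPM, which is under 4-fold. Adrb1, the beta-1 adrenergic receptor, had 0 UMIs in the P1 library labelled lung and 332 CPM in the P1 library labelled fat, at least 123-fold higher when set against 3 UMIs. Apln, the ligand of the apelin receptor, stood at 8.99 and 151 CPM. The nitric oxide synthase Nos3 went the other way, at 168 and 31.2 CPM, and the endothelin precursor Edn1 was close at 147 and 157 CPM. In the prostaglandin list the counts were 0 and 2 of 4 measured members (median -1.97). The 2, Hpgd and Slco2a1, remove prostaglandins, and Hpgd is also a tissue marker whose direction was known beforehand. Ptgs1, the cyclooxygenase that begins prostaglandin synthesis, stood at 89.9 and 90.1 CPM.

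Among endothelial transcription factors 29 of 41 members were measured, 3 of them at least 4-fold higher in the P1 library labelled lung and 7 in the P1 library labelled fat (median log2 difference -0.30). The 3 higher in the P1 library labelled lung were Tcf15, Meox2 and Pparg. Gata2 stood at 91.7 and 528 CPM, Foxp1 at 155 and 779 CPM and Epas1, the hypoxia-inducible factor 2 alpha of endothelium, at 626 and 3319 CPM. All 3 came within 4-fold when scaled to the pan-endothelial sum. Among factors common to endothelium with close values, Klf2, induced by flow, stood at 1826 and 1370.3 CPM, Klf4 at 670.3 and 494 CPM and Sox18 at 412 and 478 CPM. Of the Hox genes, which record position along the body axis, 4 of 39 were measured. Hoxa5 stood at 26.1 and 183 CPM and Hoxd8 at 57.5 and 0.316 CPM, the latter with 2 UMIs in the P1 library labelled fat, which gave a ratio of 182 (48.3 to 1534) in the opposite direction to Hoxa5. Hoxa5 was within 4-fold when scaled to the pan-endothelial sum. Cyp26b1, the enzyme that degrades retinoic acid, stood at 23.4 and 259.8 CPM, higher in the P1 library labelled fat.

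Pan-endothelial genes were present in both libraries. In that list 23 of 24 members were measured, 0 of them at least 4-fold higher in the P1 library labelled lung and 2 in the P1 library labelled fat (median log2 difference -0.61). The 2 were Clec14a (145 and 1644 CPM) and Tspan7 (323 and 1908 CPM), and Tspan7 fell within 4-fold when the list's own sum was the scale. Esam, a junction adhesion molecule, stood at 985 and 790.0 CPM. Pecam1 (1229 and 1808 CPM) was a selection gene, so its presence is not a result. Of the gate, Tek (Tie2) stood at 229 and 704 CPM and Ly6a (Sca1) at 1745 and 2494 CPM, while Pdgfra (14.4 and 6.17 CPM) and Ptprc (CD45, 18.9 and 2.06 CPM) stood under 20 CPM in both. Ly6a RNA was thus abundant although the P1 gate took low Sca1. Thinned, it was seen in 80.5% and 75.8% of P1 barcodes. Non-endothelial barcodes of lung P2 and fat P2, gated for high Sca1, held it in 3.76% and 71.8%. In the junction list the counts were 3 and 1 of 12 measured members (median 0.03). Ocln (occludin) had 0 UMIs in the P1 library labelled lung and 72.3 CPM in the P1 library labelled fat, at least 26.8-fold higher against 3 UMIs. Scaled to the pan-endothelial sum, Ocln was below the 50 CPM minimum. Cldn15, a pore-forming claudin, stood at 66.5 and 0.791 CPM, and Jam3 at 97.9 and 13.4 CPM.

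Most genes of transport across the endothelium were less than 4-fold apart. Of all genes, 5.51% and 5.66% were at least 4-fold apart in the respective direction, and 11.2% in either. Neither list below had a smaller share in either direction than that last value. In the list of fenestra, caveola and transcytosis genes the counts were 1 and 1 of 11 measured members (median -0.30), with Cavin3, a caveolar coat protein, at 655 and 103 CPM and Nostrin in the other direction. The caveolin gene Cav1 stood at 1095 and 1686 CPM and Cavin1 at 629.9 and 509 CPM. In the exchange list the counts were 0 and 2 of 11 measured members (median -0.08). Both were carbonic anhydrases, Car4 and the cytoplasmic Car2 (11.7 and 165 CPM), whereas the water channel Aqp1 stood at 1818 CPM (1739 to 1899) and 1431 CPM (1401 to 1461).

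Basement membrane genes stood higher in the P1 library labelled lung. In that list 14 of 19 members were measured, 6 of them at least 4-fold higher in the P1 library labelled lung and 0 in the P1 library labelled fat (median log2 difference 1.80). Hspg2, which encodes the heparan sulfate proteoglycan perlecan, stood at 889.6 CPM (835 to 947) and 11.7 CPM (9.19 to 14.7), 76.0-fold (60.0 to 97.6) higher. Col15a1 stood at 244 and 7.59 CPM, Col18a1 at 102 and 4.43 CPM, Lamb1 (laminin beta 1) at 98.8 and 2.21 CPM and Lama4 at 184 and 19.9 CPM. The main network collagen was close, with Col4a1 at 908 CPM (852 to 965) and 845 CPM (823 to 868) and Col4a2 at 596 and 435 CPM. Fibroblasts also make several of these proteins, and fibroblast RNA moved in the same direction. All 9 measured fibroblast markers of 14 were at least 4-fold higher in the P1 library labelled lung (summed level 1795 and 132 CPM, no member at 0 UMIs in either). In the 180 and 1876 barcodes without a UMI of Col1a1, Col1a2, Col3a1 or Dcn, the log2 difference of Hspg2 was 5.38 (main value 5.37), of Col15a1 3.81 (3.85), of Lamb1 2.75 (3.16) and of Fabp4 6.92 (6.86). In the P1 library labelled lung the variance over mean of these 4 fibroblast genes across thinned barcodes was 0.924 to 0.976, no more than counting error gives, so a barcode without such a UMI is not shown to be free of fibroblast RNA. In these barcodes 234 and 255 genes were at least 4-fold apart, among them 215 of the 253 and 219 of the 260.

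Markers of larger vessels were mixed. In the large artery list the counts were 2 and 1 of 14 measured members (median 0.30), with Mgp, an inhibitor of calcification, at 1071 and 105 CPM, the elastic fibre protein Fbln5 at 302 and 27.2 CPM and Efnb2 in the other direction. The arterial connexin Gja4 was close, at 192 and 163 CPM. In the list of venous and leukocyte adhesion genes the counts were 3 and 1 of 11 measured members (median 0.83). Lrg1, a secreted modulator of TGF-beta signals, stood at 804 CPM (752 to 859) and 25.8 CPM (21.970 to 30.0) and was 31.2-fold (26.4 to 37.1) higher in the P1 library labelled lung. Selp, the P-selectin of venules, stood at 51.2 and 1.90 CPM and came within 4-fold (log2 1.89) without barcodes holding fibroblast UMIs. Of the lymphatic genes 5 of 10 members were measured, 2 of them at least 4-fold higher in the P1 library labelled lung and 1 in the P1 library labelled fat (median log2 difference 1.92). Ccl21a, the chemokine of lymphatic vessels and high endothelial venules, stood at 970.4 CPM (913 to 1030.1) and 37.0 CPM (32.4 to 42.1), although reads of its near-identical copies could have been divided among them. It was seen in 61.1% (57.2 to 64.8) and 0.209% (0.0569 to 0.534) of thinned barcodes and 76.5% and 0.209% unthinned. Prox1, the defining factor of lymphatic endothelium, stood at 14.4 and 1.42 CPM and was below the 50 CPM minimum. Lyve1, a hyaluronan receptor of lymphatic and some capillary endothelium, went the other way, at 66.5 CPM (52.2 to 83.5) and 709 CPM (688 to 729.8).

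Immune genes were described by class. In the antigen presentation list the counts were 0 and 1 of 14 measured members (median -0.47): B2m, the light chain of MHC class I, stood at 2302 and 2721 CPM, and the MHC class II gene H2-Ab1 at 51.2 and 237 CPM. The class II genes H2-Aa (44.0 and 202 CPM) and H2-Eb1 (35.9 and 159 CPM) were just under the limit in the same direction. H2-Ab1 lay near the limit and was within 4-fold under 7 of the 18 alternatives. In the interferon list the counts were 2 and 0 of 19 measured members (median 0.03), Rsad2 at 137 and 20.4 CPM and Ifi27l2a at 224 and 4.74 CPM, while Bst2 was close at 653 and 561 CPM. Of the complement and coagulation genes 12 of 19 members were measured, 6 of them at least 4-fold higher in the P1 library labelled lung and 1 in the P1 library labelled fat (median log2 difference 2.16). Component C3 stood at 77.3 and 1.42 CPM, the C1 inhibitor Serping1 at 99.7 and 7.12 CPM and the protein C receptor Procr at 65.6 and 1.90 CPM. Several of them are also made by fibroblasts, and without barcodes holding fibroblast UMIs the log2 difference was 2.69 for C3, 3.07 for Serping1 and 1.99, within 4-fold, for Procr. In the chemokine list the counts were 3 and 1 of 10 measured members (median 0.19). Cxcl9, induced by interferon gamma, stood at 128 and 0.158 CPM, Cxcl1 at 57.5 CPM against 0 UMIs (at least 121-fold), and the scavenging receptor Ackr2 at 2.70 and 85.7 CPM. In the Ly6 family the counts were 2 and 0 of 6 measured members (median 0.97), and in the Gimap family of small GTPases 0 and 0 of 6 measured members (median -0.25), with Gimap6 at 399.9 and 355 CPM.

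Immediate early and stress genes, which cells transcribe quickly after many kinds of stimulus, stood higher in the P1 library labelled lung. In that list 20 of 20 members were measured, 15 of them at least 4-fold higher in the P1 library labelled lung and 0 in the P1 library labelled fat (median log2 difference 3.08). Fos, a subunit of the AP-1 factor, stood at 3719 CPM (3607 to 3834) and 22.6 CPM (19.1 to 26.6), 164-fold (139 to 196) higher. Its relative Fosb stood at 926 CPM (871 to 985) and 6.48 CPM (4.65 to 8.80), Junb at 2895 and 58.3 CPM, the zinc finger factor Egr1 at 1347 and 24.4 CPM and the orphan nuclear receptor Nr4a1 at 451 and 8.38 CPM. Socs3, a brake on cytokine signals, stood at 695 and 20.4 CPM, Zfp36, which destabilises messenger RNA, at 1864 and 81.1 CPM, and the heat shock gene Hspa1a, which has a near-identical copy, at 2476 and 194 CPM. Jun was an exception, at 2211 CPM (2125 to 2300.5) and 1455 CPM (1425 to 1485). Thinned, Fos was seen in 97.1% (95.5 to 98.2) and 1.04% (0.639 to 1.61) of barcodes, and unthinned in 99.4% and 2.35%.

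The promoters of Fos, Fosb and Nr4a1 are shown as examples with large log2 differences and do not stand for the whole list. These genes are classical targets of CREB, a factor that binds the cAMP response element. Each line gives the 150 bases before the start site, 5' to 3' along the gene, from RefSeq on GRCm38.p6, with capitals marking the half-site TGACG or its reverse complement CGTCA.
Fos: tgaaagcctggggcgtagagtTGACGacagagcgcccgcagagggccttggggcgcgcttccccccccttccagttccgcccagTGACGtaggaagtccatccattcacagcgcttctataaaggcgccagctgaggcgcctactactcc
Fosb: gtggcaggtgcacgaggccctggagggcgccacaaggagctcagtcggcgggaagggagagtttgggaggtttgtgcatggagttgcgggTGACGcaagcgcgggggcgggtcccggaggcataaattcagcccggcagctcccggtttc
Nr4a1: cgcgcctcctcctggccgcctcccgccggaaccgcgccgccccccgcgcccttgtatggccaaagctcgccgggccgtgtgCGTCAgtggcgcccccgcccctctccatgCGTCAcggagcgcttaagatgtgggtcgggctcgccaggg
They lie at chr12:85473740-85473889, plus strand (Fos), chr7:19310046-19310195, minus strand (Fosb) and chr15:101266696-101266845, plus strand (Nr4a1). The half-sites begin at -129 and -66 from the start of Fos, at -60 for Fosb and at -69 and -40 for Nr4a1. Searched on both strands in the 250 bases before each start, TGACG was found in 8 of 17 promoters of 16 immediate early and stress genes (47.1%) and in 5836 of 32851 promoters of all genes (17.8%). The full palindrome TGACGTCA, which contains the half-site, was found in 2 of the 17 (Btg2 and Dusp1) and in 508 of all (1.55%). Btg2 and Dusp1 were higher in the P1 library labelled lung by less than 4-fold (log2 1.92 and 1.62). A match describes these letters only, and binding was not measured.

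Several of these genes also stood apart in the P2 libraries, which hold a different population. Over whole libraries Fos stood at 689 CPM in lung P2 and 5906 CPM in fat P2, Fosb at 55.7 CPM in lung P2 and 1913 CPM in fat P2, Junb at 403 CPM in lung P2 and 1953 CPM in fat P2 and Egr1 at 907 CPM in lung P2 and 2532 CPM in fat P2. These 4 were higher in fat P2, while in P1 they were higher in the library labelled lung. Nr4a1 went the other way in P2, at 312 CPM in lung P2 and 151 CPM in fat P2. Handling of the samples is not described for each library in the sources used here, so handling and tissue cannot be told apart. Of the hypoxia and glycolysis genes 9 of 17 members were measured, 2 of them at least 4-fold higher in the P1 library labelled lung and 3 in the P1 library labelled fat (median log2 difference 0.81). Ndrg1, a stress-induced gene, stood at 312 and 17.9 CPM and Ldha, the last enzyme of anaerobic glycolysis, at 344 and 74.2 CPM, while Epas1, Vegfa and Hilpda went the other way.

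**Figure D4:**
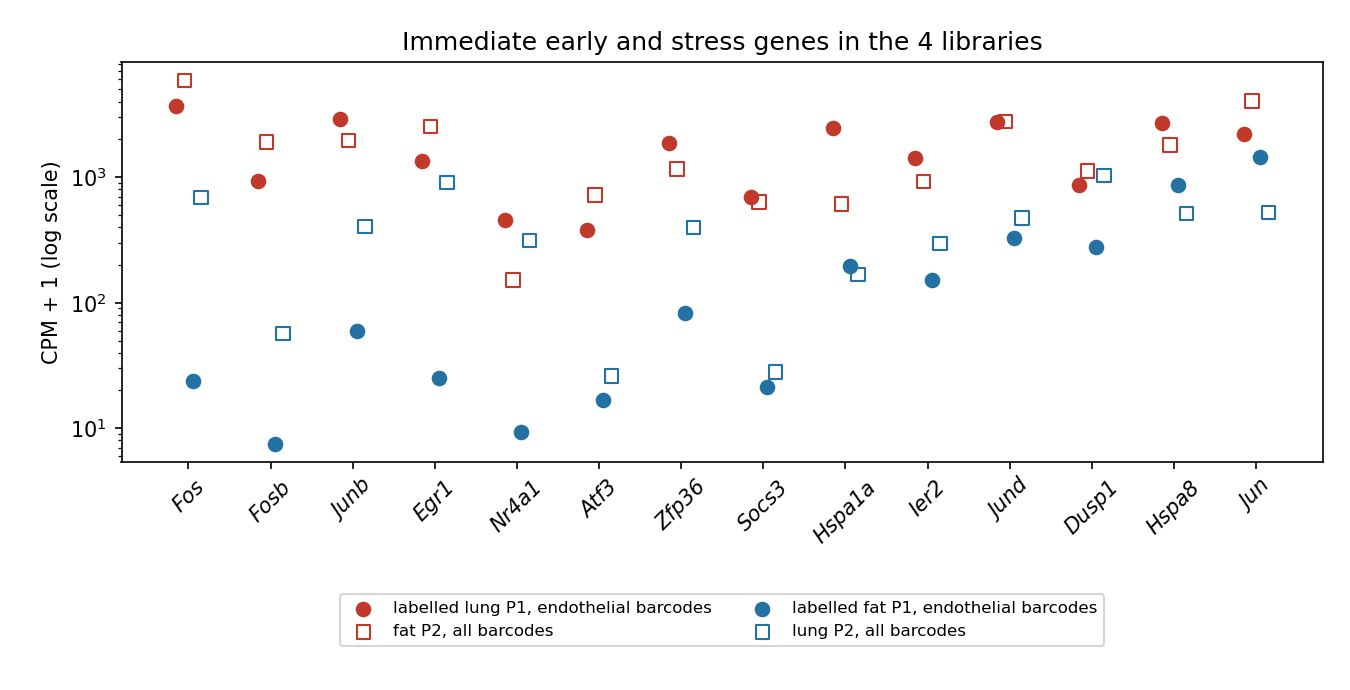
CPM + 1 on a log axis of 14 immediate early and stress genes in the endothelial barcodes of the 2 P1 libraries, and in the whole P2 libraries, 1 library per point. Fos stands at 3719 CPM in the P1 library labelled lung and 22.6 CPM in the P1 library labelled fat, whereas Jun lies within 2-fold.

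RNA of other cell types was present in different kinds in the 2 libraries. In the P1 library labelled lung, 467 of 647 barcodes (72.2%, 68.6 to 75.6) held a UMI of Col1a1, Col1a2, Col3a1 or Dcn, against 39 of 1915 (2.04%) in the P1 library labelled fat, and 56.1% against 0.992% after thinning. Haemoglobin UMIs were in 98.3% and 50.9% of barcodes (97.8% and 22.5% thinned). Hbb-bs, an adult beta globin, stood at 3899 and 157 CPM, and the erythroid list summed to 5818 and 225 CPM. All 4 of its 4 measured members were at least 4-fold higher in the P1 library labelled lung, near-identical globin copies included. Adipocyte markers were low: 4 of 16 were measured, all at least 4-fold higher in the P1 library labelled lung, and they summed to 448 and 37.3 CPM. Adipoq, the defining adipocyte hormone, had 2 and 0 UMIs and Plin1, the coat of adipocyte lipid droplets, 1 and 0.

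Alveolar epithelial RNA was in the P1 library labelled fat. Sftpc, surfactant protein C of alveolar type II cells, had 0 UMIs and 756 CPM (at least 280.4-fold higher against 3 UMIs). It was seen in 0 of 647 barcodes (interval up to 0.569%) and in 36.9% of 1915 (15.4% thinned). Of its 4781 UMIs, 3834 lay in 1 barcode, and 82.2% in the 20 barcodes that held most. Much of this RNA was in barcodes found in another library: without those, Sftpc stood at 153 CPM (log2 difference -4.02 in place of -6.26). Sftpa1 stood at 0 and 152 CPM, and at 0 and 22.8 CPM without those barcodes, where it was below the minimum. In all members Hopx stood at 7.19 and 314 CPM and Ager, a type I cell gene that endothelium also expresses at a low level, at 2.70 and 111 CPM. Of the epithelial list 9 of 18 members had 0 UMIs in the P1 library labelled lung and none in the other, and the list summed to 553 and 1531 CPM. The keratins Krt8 (159.9 and 5.53 CPM) and Krt18 (211 and 4.11 CPM) went the other way, so that the counts were 2 and 4 of 7 measured members (median -3.25, a sign that 3 alternatives reversed). Mural markers summed to 773 and 363 CPM, with 2 and 0 of 4 measured members at least 4-fold higher in the respective library, Acta2 (smooth muscle actin) at 187 and 16.3 CPM and Tagln at 244 and 18.3 CPM. With no endothelial minimum Acta2 came within 4-fold (log2 1.95). Lists of T and NK cells, neutrophils, platelets, Schwann cells, muscle, milk genes and proliferation had no member at 50 CPM. The part of these cells' RNA in the other differences was not tested.

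Barcodes of the P1 library labelled lung differed little from each other. At 1000 UMIs per barcode, the variance of a gene's UMIs over its mean had a median of 1.01 over 1545 genes with a mean of at least 0.1 UMIs, where counting error alone gives 1. Only 5 genes passed 1.5 there, Gm42418, Malat1, AY036118, Cxcl12 and Fos. In the P1 library labelled fat the median was 1.06 over 2005 genes, and 78 genes (3.89%) passed 1.5. These included aerocyte genes that part of the barcodes carried, with Emp2 at 4.78, Car4 at 2.94 and Fibin at 2.72, the general capillary gene Sema3c at 2.92, Igfbp7 at 4.89 and Sftpc at 70.0. Emp2 was seen in 4.02% (2.64 to 5.83) and 41.4% (39.2 to 43.7) of thinned barcodes and Car4 in 7.42% (5.52 to 9.72) and 33.003% (30.9 to 35.2), and unthinned in 7.26% and 57.3% and in 12.4% and 45.8%. Non-endothelial barcodes of lung P2 and fat P2 held Car4 in 0.0710% and 0.0762% and Emp2 in 37.6% and 4.10%, when thinned.

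In the P1 library labelled lung the genes of different vessel types were spread evenly over barcodes. Ccl21a had a variance over mean of 1.13, Fabp4 of 1.22, Lrg1 of 1.06 and Igfbp7 of 1.10. In the P1 library labelled fat the few Fabp4 and Ccl21a UMIs were concentrated instead, at 12.3 and 27.7, and with barcodes found in another library removed the log2 differences were 6.82 and 4.36 against 6.86 and 4.38. Values of the P1 library labelled lung are therefore given as sums over barcodes, and whether each barcode holds 1 cell was not tested.

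**Figure D5:**
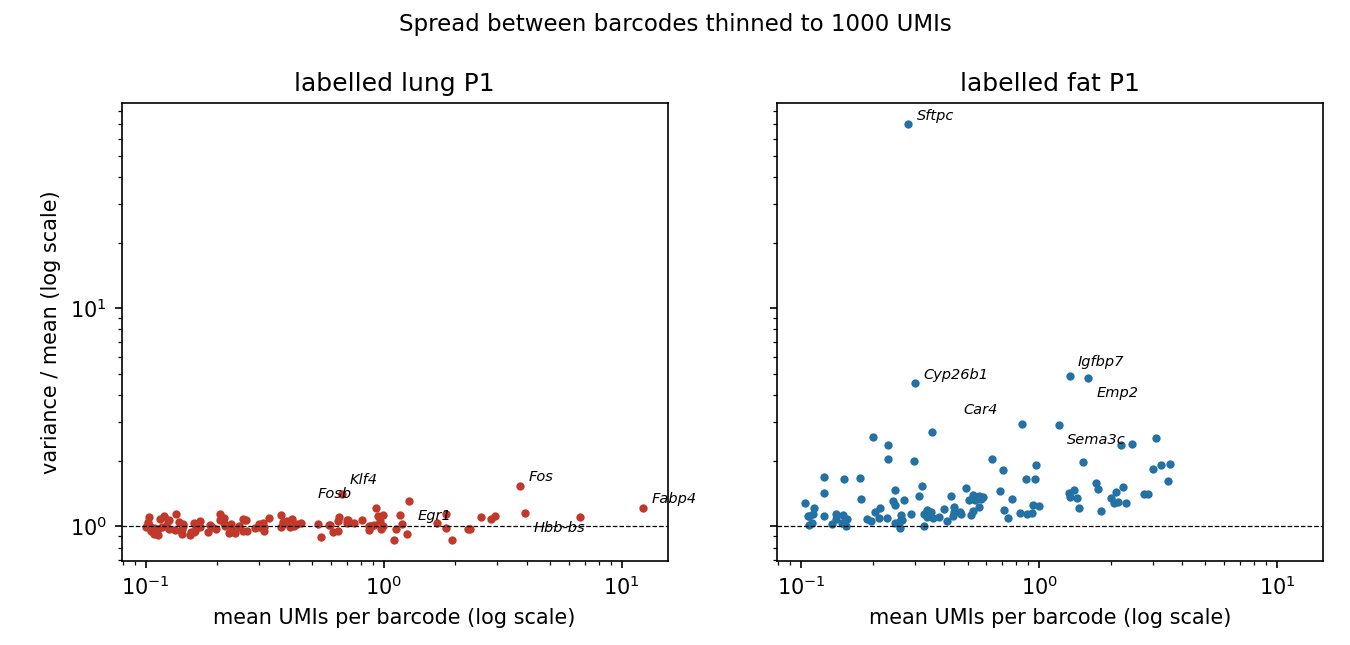
Variance over mean of the UMIs of named genes across barcodes thinned to 1000 UMIs, against the mean UMIs per barcode, on log axes with a dashed line at 1, for the P1 library labelled lung and the P1 library labelled fat. Points of the former lie along the line, and those of the latter reach 70.0 for Sftpc.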

How the data were processed

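Endothelial barcodes of 2 sorted P1 libraries of mouse vessel progenitor cells were analysed, with the 2 P2 libraries as tissue reference. The deposited matrices hold counts (UMIs per gene and barcode, not normalized), made by the authors with Cell Ranger 3.1.0 on mm10, per the submitters' processing notes. The annotation release is not given in the sources used here. Where 1 symbol stood for several IDs (35 symbols), their counts were added, which left 31017 symbols. Coordinates came from GENCODE vM21 (GRCm38) by gene ID, with 31011 of 31053 IDs matched, and promoters from RefSeq by symbol. No doublets were removed in the main values. Not every list is reported here.

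Barcode limits, CPM, the 10 CPM added, the 50 CPM minimum and the 4-fold limit are those given in the report. CPM have exact Poisson and shares exact Clopper-Pearson intervals, and ratios exact conditional intervals, all at 95%. Depth per library was 1510443 (labelled lung P1) and 8866500 (labelled fat P1) UMIs before filtering. The members, lists and limits were chosen with earlier results of these data known. Named genes were the 15 highest and 15 lowest log2 differences (without mitochondrial, ribosomal, immunoglobulin, Gm- and Rik-named genes), the selection, gate and tissue marker genes, and, of each list, the 4 largest differences and up to 3 members with close values (under 0.5 log2). Any other gene was chosen after its values were seen. Python 3.11.15, scipy 1.17.1 and pandas 2.3.3 were used, and edgeR 4.0.16 for a TMM alternative. In all 18 alternatives were computed, 1 of them (removal of barcodes found in another library) chosen after seeing the data.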

Additional observations from a re-analysis of the deposited data

How the results depend on the processing

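No paired analysis was possible because each side has 1 library. None of the 513 genes at least 4-fold apart changed direction under any of the 18 alternatives. The counts of 253 and 260 genes became 645 and 107 when scaled to the pan-endothelial sum, and 88 and 102 with 50 CPM added in place of 10. Under the other 16 alternatives they stayed within 1.5 times the main counts, for example 278 and 248 with TMM scaling, 287 and 306 when thinned to 1000 UMIs, and 243 and 254 with a higher UMI minimum (164 and 1464 barcodes). Without mitochondrial and ribosomal genes in the total, the median over all genes shifted by 0.23 and the counts were 345 and 237. Of all values of named genes and lists, 3516 stayed within the counting interval (genes) or within 0.5 log2 (list medians), and 796 moved further. A further 4 were list medians at 4-fold or more that changed sign. Values nearer 0 that crossed it are not in that count, and with them 18 of 40 list medians changed sign under the pan-endothelial scaling. The median log2 difference of the epithelial markers (-3.25) was 1.29 with at least 5 endothelial UMIs, 1.08 scaled to the pan-endothelial sum and 0.35 without mitochondrial and ribosomal genes. That of the complement and coagulation genes (2.16) was -0.67 with a minimum of 100 CPM, which fewer members reach. The cause of the others was not tested. Fibroblast genes are 0 by construction where barcodes with their UMIs are removed and were left out there. The depth of the P1 library labelled lung sets its floor at 2.70 CPM, so folds against its lowest genes are limited by counting.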

Other observations

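Some genes outside the lists' themes stood far apart. Ptn, the growth factor pleiotrophin, stood at 319 CPM in the P1 library labelled lung with 0 UMIs in the P1 library labelled fat (at least 672-fold higher against 3 UMIs). Itm2a, a membrane protein, stood at 322 and 2.85 CPM and S100a6, a calcium-binding protein, at 984 and 28.1 CPM. In the other direction the neuronal sodium channel subunit Scn3b stood at 6.29 and 545 CPM, and Mapt, which encodes the microtubule protein tau, at 0.899 and 322 CPM, the latter with 1 UMI in the P1 library labelled lung (ratio 358, 64.2 to 14159). In the IGF and growth factor list 14 of 22 members were measured, 2 of them at least 4-fold higher in the P1 library labelled lung and 0 in the P1 library labelled fat (median log2 difference -0.00183). Igfbp3, which binds insulin-like growth factors, stood at 249 and 8.22 CPM and Igfbp5 at 85.4 and 5.85 CPM, while Pdgfb, the endothelial signal to pericytes, was close at 299 and 323 CPM.

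RNA linked to both sexes was present in each library: Xist, transcribed from the inactive X chromosome, stood at 286 and 818 CPM and the Y-linked Ddx3y at 5.39 and 31.6 CPM (6 and 200 UMIs). Krt19, a keratin of mesothelium and other epithelia, stood at 207 and 5.69 CPM, Ly6d at 208 and 1.58 CPM, and the macrophage gene Lyz2 at 69.2 and 60.7 CPM. Without barcodes found in another library Lyz2 stood at 69.3 and 24.953 CPM. Of the adipose progenitor list 9 of 12 members were measured, 3 of them at least 4-fold higher in the P1 library labelled lung and 2 in the P1 library labelled fat (median log2 difference -0.54). Of the lung fibroblast list 0 and 0 of 2 measured members were at least 4-fold apart.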
